A study of Mus musculus with 8 samples.

Results

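The interval chr4:145000000-147900000 of mouse genome build mm10 holds a cluster of KRAB zinc finger genes on 2.9 Mb of chromosome 4. Its members were the CpG cytosines read at least 10 times in each of 8 libraries, 1135 of 1510385 such cytosines in the whole study (0.0751%). Joining neighbours no more than 100 bp apart, and keeping runs of 3 CpGs or more, gave 87 regions of 125876 in all, which held 1013 of the 1135 cytosines. The interval was chosen by a measured value, the difference between cocaine and saline mice in 1 of these regions, a run of 39 CpGs inside the span of a predicted Zfp993 gene model. That difference is therefore given as a description, with no test. Just outside the rule lay 105 cytosines read 10 times or more in exactly 7 libraries, with a mean level of 62.6%, against 45.8% for the members.

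The libraries were made by reduced representation bisulfite sequencing, in which genomic DNA is cut into CpG-rich fragments and methylated cytosines are told from unmethylated ones by their resistance to bisulfite. DNA came from the dDG DGC layer dissected from the brains of 4 male mice of the C57 BL/6 genotype that self-administered cocaine and 4 male C57 BL/6 mice of the saline group of the same self-administration experiment, and each library is 1 mouse. The labels used here give no transgene, second agent, age, dose or time. A dissected layer holds more than its principal cell type, so each level is a mean over the cells present, and a change in the mixture of cells and a change of methylation within cells cannot be told apart.

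KRAB zinc finger genes encode DNA-binding proteins that recruit the corepressor TRIM28 and, through it, histone and DNA methylation, mostly to repeats such as endogenous retroviruses. The genes lie in clusters that grew by repeated duplication, so neighbouring genes and pseudogenes carry near-identical stretches. Zfp979 in this interval is also listed as Ssm1b, a strain-specific modifier of transgene methylation, and Rex2 is another zinc finger gene of the cluster. The gene table lists 89 genes in the interval, of which 25 are protein-coding, 56 are pseudogenes and 8 are long noncoding RNAs.

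Of the 16 genes with a Zfp symbol, 9 had a common cytosine in their span and 3 had at least 5 common cytosines within 1 kb of an end. A promoter window, the 250 bases before and 50 bases after a start site, was at hand for 16 start sites of 13 zinc finger genes, from RefSeq for assembly GRCm38.p6, whose coordinates are those of mm10. Only 2 of these windows held common cytosines. They are printed here, 5′ to 3′ on the gene's strand with the measured CpGs in capitals, because they show what the assay reached in this cluster. The Zfp982 window is chr4:147442864-147443163 on the plus strand and the Zfp933 window is chr4:147848369-147848668 on the minus strand.
Zfp982: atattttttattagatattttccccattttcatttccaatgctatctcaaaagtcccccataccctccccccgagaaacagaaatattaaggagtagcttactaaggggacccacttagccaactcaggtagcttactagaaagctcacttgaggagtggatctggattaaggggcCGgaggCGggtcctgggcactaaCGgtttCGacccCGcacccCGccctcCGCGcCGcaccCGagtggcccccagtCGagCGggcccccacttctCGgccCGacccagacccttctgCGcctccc
Zfp933: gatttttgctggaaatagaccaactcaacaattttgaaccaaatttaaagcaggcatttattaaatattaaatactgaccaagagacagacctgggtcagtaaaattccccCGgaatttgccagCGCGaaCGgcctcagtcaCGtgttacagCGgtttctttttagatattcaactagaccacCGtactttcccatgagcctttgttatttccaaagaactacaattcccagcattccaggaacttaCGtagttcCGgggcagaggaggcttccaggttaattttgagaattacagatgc
The Zfp982 window held 15 measured CpGs of 16, and the Zfp933 window 9 of 9. Over 25 cytosines this Zfp982 window had a level of 2.55% ± 2.38 in the cocaine group and 1.90% ± 0.315 in the saline group (SD, n = 4 each), with cocaine mouse 3 the highest at 5.93%. At the Zfp933 promoter the 10 cytosines were at 0.147% ± 0.185 and 0.314% ± 0.239. Both windows were thus nearly unmethylated in both groups. Windows at other Zfp982 start sites, chr4:147492167-147492466 and chr4:147500436-147500735, held no common cytosine.

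Most of the other windows were near copies of each other. In 11 windows of 11 genes the best match to another window of the cluster was 77.1% to 99.3% identical, and none of these 11 held a measured cytosine. They had 3 to 9 CpGs each and no CCGG, the site at which MspI, the enzyme generally used for this assay, cuts on either strand. CCGG was absent from 13 of the 16 windows and present in 52.8% of all 32851 promoter windows of the same length in the genome table. The closest pair was Zfp600, at chr4:146156577-146156876, and Rex2, at chr4:147021600-147021899, both on the plus strand and 99.3% identical. They are shown with every CpG in capitals, none of them measured, to give the scale on which copies resemble each other.
Zfp600: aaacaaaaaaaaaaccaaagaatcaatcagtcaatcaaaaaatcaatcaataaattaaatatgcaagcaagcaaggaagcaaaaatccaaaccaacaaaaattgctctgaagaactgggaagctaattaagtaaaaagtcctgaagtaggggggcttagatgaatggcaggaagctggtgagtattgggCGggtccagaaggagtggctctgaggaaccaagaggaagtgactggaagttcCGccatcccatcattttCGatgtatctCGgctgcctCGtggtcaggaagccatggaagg
Rex2: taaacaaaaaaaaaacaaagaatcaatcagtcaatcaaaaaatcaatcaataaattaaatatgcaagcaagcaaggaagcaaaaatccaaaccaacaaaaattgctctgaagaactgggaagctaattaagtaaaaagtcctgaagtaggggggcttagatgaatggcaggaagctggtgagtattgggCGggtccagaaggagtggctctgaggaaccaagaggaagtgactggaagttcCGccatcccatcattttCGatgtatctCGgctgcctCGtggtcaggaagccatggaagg
Each holds 5 CpGs. Methylation at the start sites of Zfp600, Rex2, Zfp979, Zfp980, Zfp981, Zfp985, Zfp987, Zfp988, Zfp993, Zfp534 and Zfp984 was therefore not measured in these windows, and the values that follow come mostly from pseudogenes and gene bodies. The Zfp982 start sites outside the measured window were not measured either.

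The 8 libraries listed 1844706 to 2236384 cytosines each, with 87964952 to 141775386 reads summed over cytosines and a median of 34 to 66 reads per cytosine. In the interval the median was 73 reads per common cytosine and library, with a range of 10 to 1113. Saline mouse 1 listed the most cytosines, and cocaine mouse 3 had the lowest mean level over common cytosines, 36.5%, against 37.1% to 38.3% in the other 7 libraries. At the ends of marker genes of dentate granule cells the mean level was 2.56% in cocaine and 2.82% in saline mice, with 7 of 10 genes measured. It was 3.21% and 3.24% for pyramidal cells (8 genes), 23.9% and 23.5% for oligodendrocytes (7), 11.4% and 11.8% for astrocytes (8) and 30.0% and 29.2% for microglia (4). Exact permutation tests between the groups gave p from 0.371 to 0.886 over these 5 lists.

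The cluster was more methylated than the rest of the common cytosines in every mouse. Outside the 39-CpG region the mean level was 46.2% over the 8 mice, against 37.7% for all other common cytosines, a difference of 8.54 points ± 0.429 (SD, n = 8 mice, exact sign permutation p = 0.00781, the smallest 8 mice can give, adjusted p = 0.0148 over 19 such within-mouse comparisons). That p speaks only of how the difference recurs from mouse to mouse. Whether the interval differs more than other stretches of the genome was not tested. Cytosines below 5% made up 30.7% of the interval and 47.1% of the rest. Cytosines from 20% to 80% made up 24.9% and 17.2%. In the plot of region level along the interval, low regions alternated with intermediate and high ones over the whole 2.9 Mb.

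**Figure D1:**
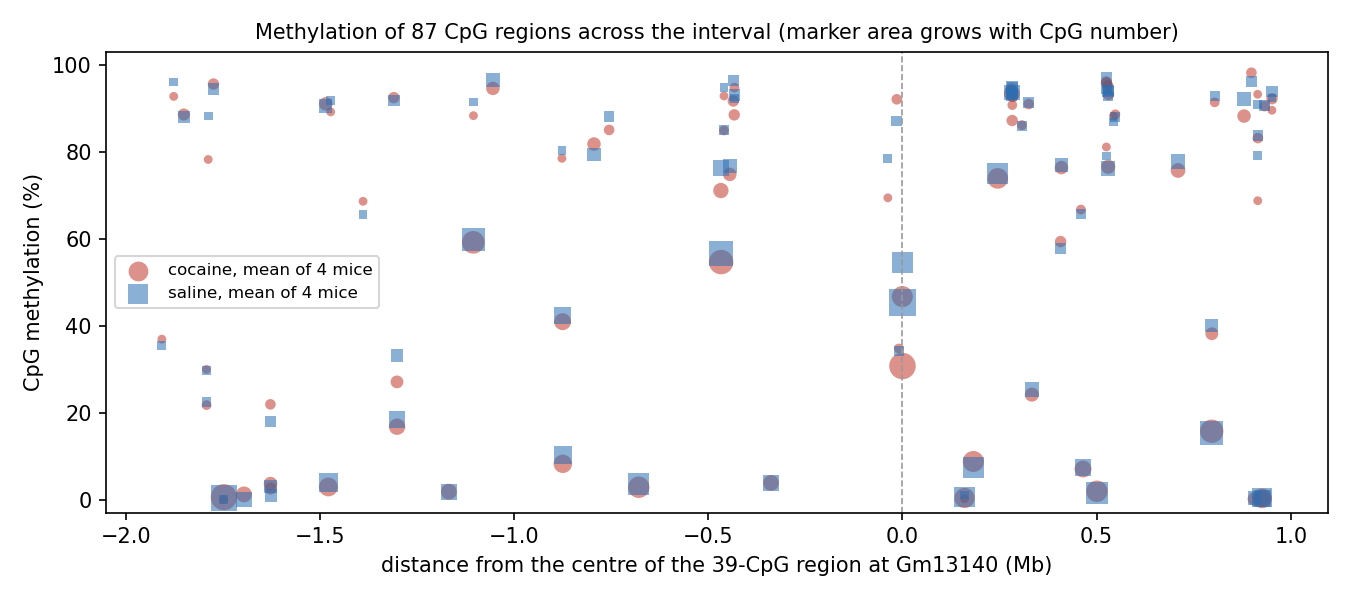
Mean CpG methylation (%, y axis) of the 87 regions against their distance from the centre of the 39-CpG region (Mb, x axis), circles for the mean of 4 cocaine mice and squares for the mean of 4 saline mice, with marker area growing with the number of CpGs. The markers of the 2 groups nearly coincide at most regions, and at the dashed line the 39-CpG region sits at 30.7% in cocaine and 45.3% in saline mice.

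The region that the interval was chosen for spans chr4:146942230-146942551, 322 bp with 44 common cytosines at 39 CpGs. It starts 46 bp before the pseudogene Gm13140 and covers 276 bases of it. The gene table gives no strand, so before, start and end of a pseudogene are meant by coordinate. Around it the annotation places a single predicted Zfp993 model of 478623 bp, whose start lies 429.381 kb away and whose other end lies 48.92 kb away. The link to Zfp993 is thus one of position inside a long predicted span, while the annotated feature under the CpGs is Gm13140.

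Its level was 29.3%, 30.8%, 29.8% and 32.9% in cocaine mice 1 to 4 and 45.1%, 43.9%, 49.0% and 43.3% in saline mice 1 to 4. The groups did not overlap, and the means were 30.7% ± 1.59 and 45.3% ± 2.54 (SD, n = 4 each), a difference of -14.6 points. Coverage summed over the 44 cytosines was 1892 in the shallowest library, cocaine mouse 1, and 4534 in the deepest, saline mouse 1. Such a sum counts a read once for each cytosine it covers, so fewer reads stand behind each value. The median was 30 reads per cytosine in cocaine mouse 1 and 105 in saline mouse 1. No region of the genome, this one included, was called in the fit over all 92484 tested regions (percent called 0).

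Within the region 43 of 44 cytosines were lower in cocaine mice, and 12 of 44 had no overlap between the groups, where 1.98% of all 666028 tested cytosines were lower without overlap. Since the region was chosen for this difference, nothing is read from that count. CpGs of 1 fragment are read together and do not count as independent. The widest gap was at base 146942392, where cocaine mice had 31.0%, 51.3%, 42.2% and 41.9% and saline mice 59.0%, 70.9%, 80.5% and 64.6%. The only cytosine not lower in cocaine mice was at base 146942433, with means of 25.3% and 24.4%.

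The difference was not even along the region. Over the 15 cytosines at the start of the region, all on the minus strand, cocaine mice had 20.5%, 10.9%, 12.9% and 30.1% and saline mice 33.8%, 29.6%, 36.2% and 18.1%, so the groups overlapped there, with mouse 4 of each group on the other group's side. The next 15 cytosines were at 36.9%, 34.3%, 33.9% and 35.3% against 50.2%, 57.9%, 56.2% and 48.0%. The last 14 were at 30.8%, 36.4%, 37.8% and 30.9% against 46.4%, 41.0%, 50.7% and 53.6%. The groups were apart in the middle and at the end of the region but not at its start. The 8 cytosines that precede Gm13140 were lower in both groups, at 15.9% ± 9.87 and 26.6% ± 7.11, than the 36 inside it, at 32.0% ± 1.06 and 47.1% ± 2.67. At the 5 CpGs read on both strands the strands differed by a median of 9.95 points.

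**Figure D2:**
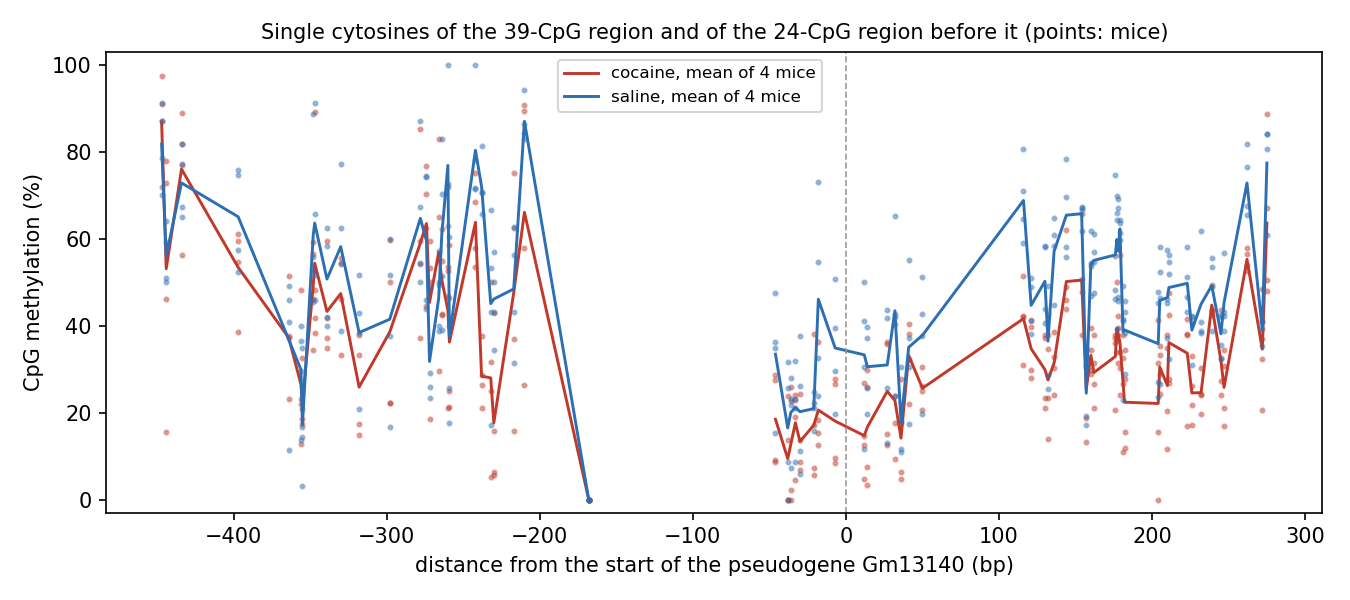
CpG methylation (%, y axis) of each common cytosine of the 39-CpG region and of the 24-CpG region before it, against distance from the start of the pseudogene Gm13140 (bp, x axis, dashed line at the start), 1 point per mouse and lines through the means of 4 cocaine and 4 saline mice. The saline line lies above the cocaine line at 43 of the 44 cytosines of the 39-CpG region and at 19 of the 27 cytosines of the region before it.

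The nearest region, 122 bp away at chr4:146941829-146942108 and also before Gm13140, had 24 CpGs. Its level was 47.6%, 48.7%, 40.0% and 50.4% in cocaine and 55.7%, 52.9%, 51.9% and 57.4% in saline mice. The groups did not overlap here either, with means of 46.7% ± 4.56 and 54.5% ± 2.54, but the difference of -7.82 points did not pass the test (adjusted p = 0.876 in the same limma-moderated fit). With only cytosines read 20 times or more in all 8 libraries the difference was -2.64 points, and without saline mouse 1 and cocaine mouse 3 it was -5.21. Of its 27 cytosines, 19 were lower in cocaine mice and 2 had no overlap. At 1 of these 2, base 146942038, named after its values were seen and read 19 times in cocaine mice 1 and 3, the means were 28.4% ± 6.86 and 72.0% ± 6.58.

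Among the 371 regions of the genome with at least 20 CpGs and a mean level from 20% to 80%, of which 5 lay in the interval, the median within-group SD was 4.33 points, and that of the 39-CpG region was 2.12. Differences over the 371 regions had a median of -1.74 points, with 5% of them below -7.79 and 5% above 3.90, and ranged from -17.0 to 11.3. Since the 39-CpG region was chosen for its difference between groups, nothing is read from its SD or its place among these regions.

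Copies of the region were looked for by the spacing of their CpGs, since identical spacing over many CpGs marks a shared sequence without needing the sequence itself. By this measure 3 other regions matched the 39-CpG region, and all 3 lay at or before a pseudogene. The match by the rule of 80% shared positions with a useful number of CpGs was a region in Gm13136, chr4:147738596-147738852, in inverted orientation, with 25 of its 30 CpGs at the same spacing. A region in Gm13034 at chr4:146067729-146067827 shared 14 of 18 and a region before Smarca5-ps at chr4:145463948-145464148 shared 13 of 19. Smarca5-ps is a pseudogene of Smarca5, an ATPase that slides nucleosomes, and Gm13140 and Gm13136 resemble it in annotated length, with 3754, 3720 and 3752 bases. Gm13034 is annotated at 1195 bases. Gm13231 and Gm13135, which are not among the 3 matches, are of like length to Smarca5-ps too, with 3708 and 3713 bases.

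The copies did not have the same level. Gm13136 was at 14.7%, 15.4%, 15.3% and 17.5% in cocaine and 12.4%, 16.4%, 13.8% and 18.7% in saline mice, with the groups mixed (15.7% ± 1.22 and 15.3% ± 2.80, difference 0.390 points, adjusted p = 0.970 in the limma-moderated fit). Gm13034 was at 8.21% ± 2.10 and 10.2% ± 2.77. The region before Smarca5-ps was at 2.89% ± 1.39 and 3.87% ± 1.10, under the minimum level of 5% for a test. None of these 3 copies had the separation of groups seen at Gm13140.

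Gm13140 was also the higher copy at the CpGs matched with each of the others, given as values with no test because the levels at Gm13140 were used to choose the interval. At the 25 CpGs shared with Gm13136, Gm13140 was at 26.4% ± 3.85 in cocaine and 40.5% ± 5.03 in saline mice, and Gm13136 at 15.7% ± 1.97 and 16.5% ± 4.58. Gm13140 was higher in 8 of 8 mice, by 6.07 to 32.9 points. At the 14 CpGs shared with Gm13034 the mean over mice was 41.9% at Gm13140 and 9.08% at Gm13034. At the 13 shared with the region before Smarca5-ps it was 24.6% and 2.45%. Gm13140 was the higher copy in 8 of 8 mice in both of these comparisons too. The 4 copies thus stood in the order Gm13140, Gm13136, Gm13034, Smarca5-ps by level, and over all CpGs of each region the ranges of neighbours in this order did not overlap across the 8 mice.

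Reads from near-identical copies can be placed at the wrong copy, and how the aligner handled this was not tested. Read shares, here and below, are of the reads summed over a library's common cytosines, where a read counts once for each cytosine it covers. The share that fell in the 39-CpG region was 23.2, 26.1, 31.4 and 31.7 per 1000000 in cocaine mice and 40.3, 30.4, 25.4 and 28.5 in saline mice. The groups overlapped, with means of 28.1 ± 4.15 and 31.1 ± 6.43 (exact permutation p = 0.543, adjusted p = 1 over 5 such values, where 4 against 4 mice cannot go below 0.0286). Saline mouse 1 had the highest share, and without it the difference of -3.04 reads per 1000000 became 0.00976.

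**Figure D3:**
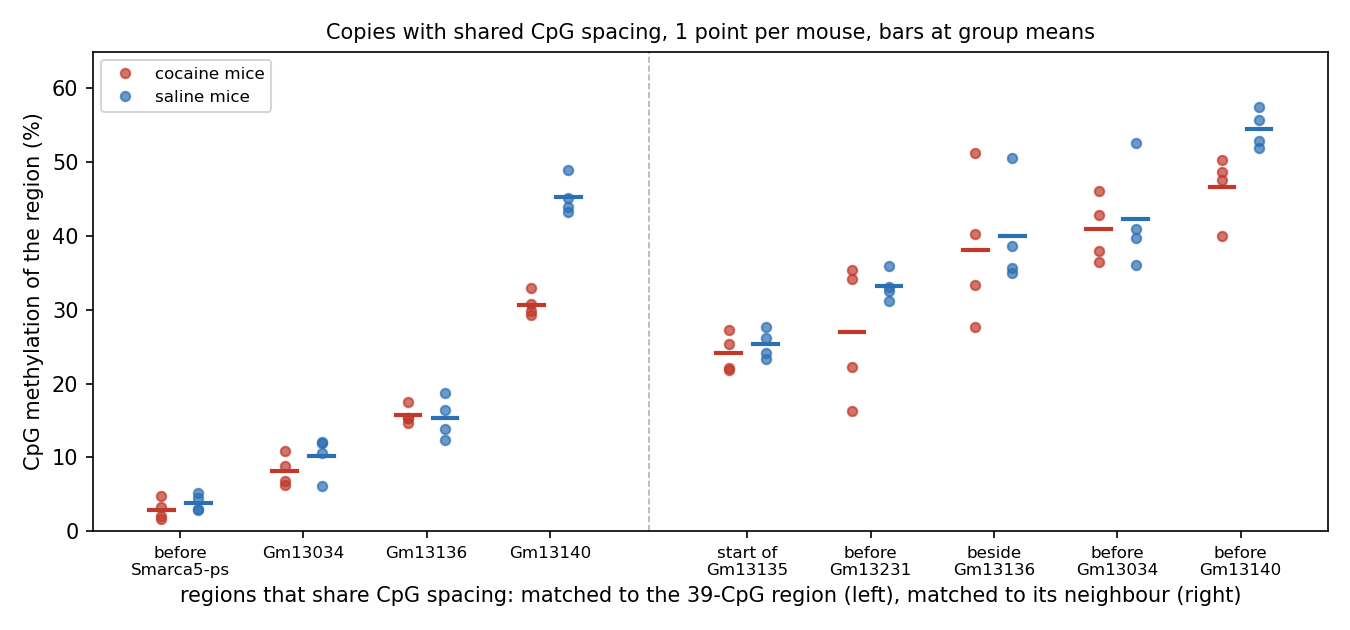
CpG methylation (%, y axis) of regions that share CpG spacing, 1 point per mouse with a bar at the mean of each group of 4, for the 39-CpG region and its matches (left of the dashed line) and for the region before it and its matches (right). Gm13140 is the only region on the left where the cocaine mice (29.3% to 32.9%) and saline mice (43.3% to 49.0%) lie apart, and on the right the groups lie apart before Gm13140.

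The region before Gm13140 had copies as well, and these were at intermediate levels. A region before Gm13034 at chr4:146067105-146067293 shared 13 of 15 CpGs and was at 36.5%, 42.8%, 38.0% and 46.2% in cocaine and 52.6%, 39.8%, 36.1% and 41.0% in saline mice. Saline mouse 1 was the highest there. Smaller matches of 7 or 8 CpGs lay before Gm13231 (27.04% ± 9.29 and 33.2% ± 1.95), at the start of Gm13135 (24.1% ± 2.65 and 25.3% ± 1.94) and beside Gm13136 (38.1% ± 10.2 and 40.0% ± 7.20). The means over 8 mice of the 5 regions ran from 24.7% to 50.6%, with the region before Gm13140 the highest. It exceeded the region before Gm13034 at the 13 shared CpGs in 8 of 8 mice, by 14.1 points on average. The regions at Gm13034, Gm13140 and Gm13135 were also the ones whose levels lay closest to the 39-CpG region over the 8 mice among regions of at least 10 CpGs. The mean distances were 8.45 points for the region before Gm13034, 12.6 for that before Gm13140 and 13.3 for Gm13135.

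Other repeated stretches were of a like class of level, low, intermediate or high, from copy to copy, with differences between some copies inside each class. A set of 5 matched regions was low throughout, at 1.70% to 8%: the lower-coordinate end of Zfp978, the measured promoter of Zfp982 shared with Gm13161, and regions at Gm13243, Gm13240 and inside Vmn2r-ps17, a vomeronasal receptor pseudogene. Within that set the Zfp978 end was above the matching region of Gm13243 in 8 of 8 mice, with 9.52% against 1.80% at 13 shared CpGs (exact sign permutation p = 0.00781, adjusted p = 0.0148). The other matched pairs of the set did not differ beyond their spread (exact sign permutation p from 0.0938 to 0.828, adjusted p from 0.119 to 0.828). A pair in Gm13238 and Gm13241 was intermediate, at 59.1% ± 2.21 and 59.8% ± 0.737 in the former and 54.6% ± 2.49 and 56.6% ± 2.53 in the latter over all their CpGs. At the 21 CpGs they share, Gm13238 was at 60.6% and Gm13241 at 49.0%, higher in 8 of 8 mice by 9.06 to 15.3 points (exact sign permutation p = 0.00781, adjusted p = 0.0148). A set of 3, in Vmn2r-ps17, in the Zfp978 span and between genes, was at 80.5%, 76.6% and 76.7% over the 8 mice. At 9 shared CpGs the region in the Zfp978 span exceeded the one between genes in 8 of 8 mice, with 77.6% against 72.0% (exact sign permutation p = 0.00781, adjusted p = 0.0148). The region in Vmn2r-ps17 did not differ beyond spread from that in the Zfp978 span (exact sign permutation p = 0.281, adjusted p = 0.297). Nor did it differ so from the one between genes (exact sign permutation p = 0.133, adjusted p = 0.158). In all, 19 of 3741 pairs of regions shared spacing over at least 7 CpGs and 60% of the smaller region, a rule chosen after the regions had been seen.

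Outside the 39-CpG region the interval did not set itself apart in the comparison of cocaine with saline. Of the 67 other tested regions 41 were lower in cocaine mice and 26 higher, so 61.2% were lower against 61.8% of all tested regions of the genome. The median difference was -0.632 points against -1.06, and none was called (percent called 0 in the genome). An unadjusted p under 0.05 was reached by 3 regions, all lower in cocaine mice. That is 4.48% of 67, where 5.65% of all tested regions reached it in either direction and 4.57% reached it with lower levels in cocaine mice. The groups did not overlap at 1 of the 67, the region before Gm13140, which is 1.49%, against 3.29% in the genome and 2.59% when only lower levels in cocaine mice are counted. Each of these shares was below its background.

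**Figure D4:**
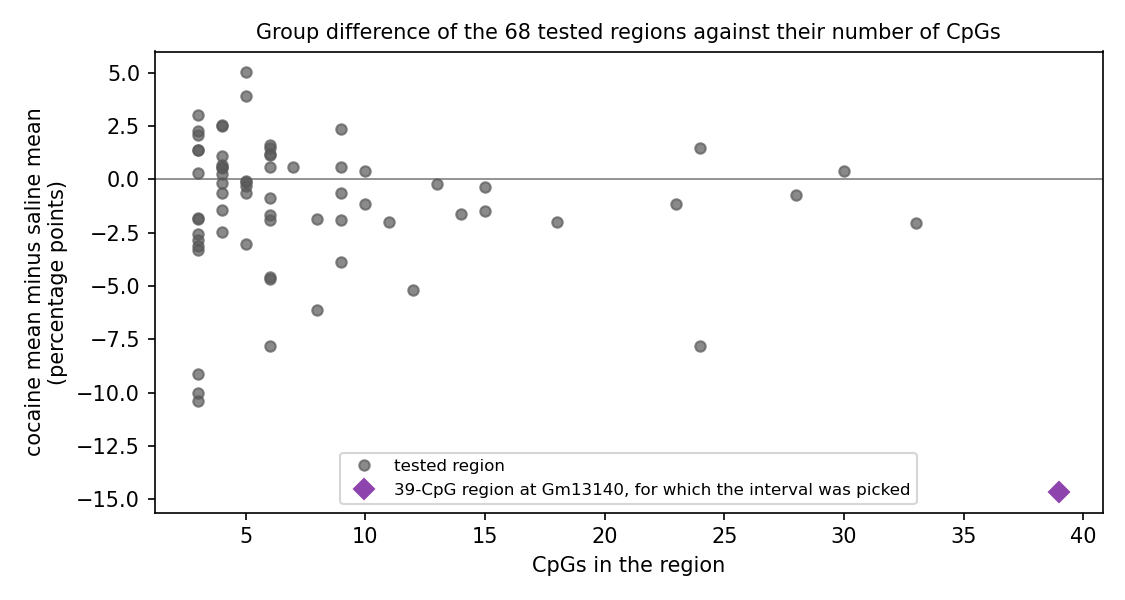
Difference between the mean level of 4 cocaine and 4 saline mice (percentage points, y axis) for each of the 68 tested regions of the interval, against the number of CpGs in the region (x axis). The 39-CpG region lies at -14.6 points, and the region before it, with 24 CpGs, at -7.82.

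After the 39-CpG region, the 3 with the smallest p were its neighbour and a pair of short regions. A region of 6 CpGs in the Zfp978 span, chr4:147224865-147224959, was at 94.6%, 81.4%, 88.5% and 84.1% in cocaine and 100%, 92.7%, 91.8% and 95.3% in saline mice (adjusted p = 0.876 in the limma-moderated fit). A region of 6 CpGs in the Zfp981 span, chr4:146506754-146506844, was at 91.5%, 90.3%, 89.7% and 95% against 100%, 94.3%, 97.0% and 93.9% (adjusted p = 0.876 in the limma-moderated fit). In each of the pair, 1 cocaine mouse lay within the saline range. The next lower ones, each of 3 CpGs, were between genes at chr4:147857206-147857324 (68.7% ± 7.90 and 79.1% ± 6.24) and in the Zfp993 span at chr4:146904703-146904793 (69.4% ± 3.91 and 78.5% ± 6.80).

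Among regions with higher levels in cocaine mice the smallest p belonged to the lower-coordinate end of Zfp978, chr4:147124819-147125087, with 24 CpGs. It was at 9.75%, 8.74%, 8.15% and 8.33% in cocaine and 4.40%, 9.03%, 8.33% and 7.27% in saline mice (adjusted p = 0.919, limma-moderated). Saline mouse 1 was the lowest, and the other 7 values overlapped. The remaining 4 were a region in the Zfp993 span (92.0% ± 2.69 and 87% ± 3.15), one in Tnfrsf8, which encodes the receptor CD30 (21.9% ± 7.98 and 18.0% ± 6.03), one in the Zfp978 span (94.4% ± 2.12 and 92.9% ± 3.61) and one between genes (68.6% ± 1.92 and 65.5% ± 2.02).

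The long regions of the interval, those with at least 10 CpGs, numbered 26, and those not yet described were low or high. Low levels were found at annotated gene starts: the start of Vps13d, a lipid transfer protein, was at 0.539% ± 0.644 and 0.269% ± 0.322, and the 2 regions shared by the starts of Miip and the retroviral restriction gene Fv1 were between 0.224% and 0.460% in either group. The start of Tnfrsf1b, a receptor for tumour necrosis factor, was at 1.14%, 0.352%, 0.565% and 2.66% in cocaine mice and had no methylated read in the saline mice. It was below the minimum level for a test. Gm13142, a pseudogene, was at 0.357% ± 0.179 and 0.642% ± 0.720, and a region of 15 CpGs between genes was at 7.02% ± 0.552 and 7.37% ± 1.41. Gm13231 was at 16.7% ± 2.62 and 18.4% ± 3.61.

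High levels were found in a further pseudogene, in a stretch of Gm13241 that had no match, and in gene bodies. Gm13146 was at 73.8% ± 0.921 and 74.98% ± 1.398, and a second region of Gm13241 at 71.0% ± 3.46 and 76.2% ± 4.63. A long region in the Zfp978 span was at 93.4% ± 0.730 and 93.6% ± 1.97, and a long region in the Zfp982 span was at 76.5% ± 3.12 and 76.1% ± 3.25. None of these passed the limma-moderated test between the groups.

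Among the zinc finger genes themselves, most measured gene bodies were highly methylated, and the ends with at least 5 cytosines were low at Zfp978 and Zfp982 and differed from end to end at Zfp933. Beyond 1 kb from either end the level in cocaine and saline mice was 74.9% ± 0.389 and 75.7% ± 0.721 over 142 cytosines of Zfp978, 85.0% ± 1.57 and 83.6% ± 1.27 over 69 of Zfp982, 89.5% ± 3.14 and 92.1% ± 2.08 over 22 of Zfp981, and 87.2% ± 2.87 and 89.7% ± 3.70 over 6 of Zfp600. The Zfp993 span was lower, at 36.8% ± 1.62 and 44.3% ± 1.45 over 110 cytosines, 44 of which are those of the 39-CpG region. Within 1 kb of the ends it was 6.22% ± 0.619 and 5.25% ± 1.54 at Zfp978 and 3.52% ± 1.35 and 3.22% ± 0.140 at Zfp982. The value for Zfp933, 32.6% ± 2.68 and 34.5% ± 2.49, joins an unmethylated start and a methylated far end beside Rps19-ps3. The ends of Zfp992 and Zfp991 had 2 cytosines each, at 93.1% ± 0.835 and 88.8% ± 4.82 for Zfp992 and 60.3% ± 13.2 and 43.01% ± 16.1 for Zfp991. The 4 regions within 1 kb of a zinc finger gene end ranged from 0.226% to 90.1% over the 8 mice.

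Zinc finger spans of the cluster were more methylated than those elsewhere. Over 306 cytosines of the cluster, away from the gene ends and outside the 39-CpG region, the mean was 72.2%, against 47.9% over 9957 cytosines in other Zfp genes, and the cluster was higher in 8 of 8 mice by 23.3 to 25.2 points (exact sign permutation p = 0.00781, adjusted p = 0.0148). The cluster value for spans rests largely on Zfp978 and Zfp982, with 142 and 69 cytosines beyond 1 kb of their ends. Only 9 of the 16 Zfp genes had a common cytosine in their span. Gene ends had a mean of 24.6% in the cluster and 15.1% elsewhere, the cluster mean again higher in 8 of 8 mice. That cluster mean rests on 4 ends of 3 genes, against 321 ends of 277 genes elsewhere. The ends of Zfp978 (6.22% and 5.25% in cocaine and saline mice) and Zfp982 (3.52% and 3.22%) lay below 15.1%. So did the start of Zfp933, at 0.226% over the 8 mice, so the higher cluster mean came from its methylated far end. The comparisons of spans and of ends were chosen after the levels had been seen, and their p speaks only of recurrence across mice.

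None of the summed values of the interval differed between cocaine and saline mice beyond their spread. Outside the 39-CpG region the interval mean was 45.7%, 45.4%, 45.8% and 46.8% in cocaine and 46.0%, 46.8%, 46.7% and 46.7% in saline mice, with overlap (means 45.9% ± 0.622 and 46.5% ± 0.361, exact permutation p = 0.143, adjusted p = 0.714 over 5 values). Taken relative to all other common cytosines of the same mouse it was 8.59 ± 0.593 points and 8.49 ± 0.265 (exact permutation p = 0.8286). The whole interval took 1164 ± 63.3 and 1166 ± 15.9 reads per 1000000 (exact permutation p = 1). Zinc finger gene ends of the cluster, relative to those elsewhere, were 9.30 ± 1.33 and 9.75 ± 1.60 points higher (exact permutation p = 0.686). The adjusted p of each of these 3 was 1.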

How the data were processed

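Each of the 8 libraries has a table with 1 CpG cytosine per line and strand. Per the file headers the level is a percent, but the values the authors deposited run as a fraction between 0 and 1, and the deposited coverage counts reads, 10 or more at each cytosine. The submitters' processing notes name bcl2fastq, Bismark version 22.1 and mm10. Not given in the sources used here are trimming, removal of duplicates and treatment of reads that match several places. Level times coverage gave whole methylated reads at 100% of cytosines, so read counts were recovered by rounding. Reads are not independent molecules, so spread between mice entered each test of the groups.

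Members and lists were chosen with earlier results of these data known. Groups and replicate numbers came from the sample titles, and the series text gives 4 mice per group. Regions of at least 3 CpGs with a pooled level from 5% to 95%, 92484 in all, were tested by quasi-binomial logistic regression with dispersions moderated by squeezeVar of limma 3.58.1 in R 4.3.3, tested on simulated data, with Benjamini-Hochberg adjustment over all of them. A call needed an adjusted p under 0.05 and 10 points. Region levels are pooled over reads, while levels of parts, shared CpGs, spans and the interval weight cytosines equally. Summed values were compared by two-sided exact permutation over 70 assignments, and levels within mice by exact sign permutation over 8 mice. The sign permutation compares fixed sets of cytosines, so its p speaks only of how a difference recurs across mice.

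Named regions were the 39-CpG region, those with at least 10 CpGs, and the 5 lower and 5 higher with the smallest p. Copies shared at least 80% of CpG positions with the 39-CpG region. That rule matched 13 regions, of which 12 shared only 3 to 5 CpGs, so a rule of at least 7 CpGs and 60% of the smaller region was added after seeing the data. The gene table gives no descriptions, so zinc finger genes were taken by a symbol starting with Zfp. It gives no strand or exons, so exons and introns were not placed. No genome sequence was used, and promoter windows came from RefSeq.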

Additional observations from a re-analysis of the deposited data

Results flagged for a closer look

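In 5 of 78 groups of 4 mice (6.41%, where chance gives about 1 in 20) a single mouse stood far from the other 3, and all 5 were saline groups. Saline mouse 1 had the lowest interval mean outside the 39-CpG region, 46.0%, against 46.7% to 46.8% in the other saline mice. Saline mouse 1 also had 9.49% in the region of 15 CpGs between genes at chr4:147407291-147407390, where the other 3 were all at 6.67%. Saline mouse 4 had the highest share of reads in the whole interval, 1190 per 1000000, against 1156 to 1161. Saline mouse 2 had 5.42% in the region inside Vmn2r-ps17 at chr4:146263205-146263485, against 2.91% to 3.13%. Saline mouse 3 had 1.72% in Gm13142 at chr4:147102171-147102284, against 0.208% to 0.405%.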

How the results depend on the processing

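The difference of the 39-CpG region kept its direction under every alternative run. It ran from -15.9 to -13.0 points with other settings and from -15.4 to -13.4 when each replicate was left out. Without saline 1 and cocaine 3 it was -14.4. Both ends of the range with other settings are of other sets of CpGs. Gaps of at most 200 bp joined the region to its neighbour (-13.0), and gaps of at most 50 bp split it (-15.9 in the part matched). The 39-CpG region was chosen for its difference and its groups did not overlap. Leaving out mice could therefore not turn the direction, and nothing is read from its being kept. No region of the interval was called under any alternative. Deviations of same-numbered mice of the groups had correlations of -0.0169, -0.0105, 0.00667 and 0.0772 over 92484 regions. Those of differently numbered mice ran from -0.139 to 0.0644. Correlations this small cannot decide whether the numbers pair the mice, and no pairing was assumed. With a replicate block 0 regions of the interval and 1 region of the genome elsewhere were called, and the exact sign permutation p of the interval mean was 0.25.

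Summed values changed sign without reaching significance. The interval mean was 0.648 points higher in cocaine mice with pooled reads, and ran from -0.925 to -0.447 when each replicate was left out. Relative to other cytosines the difference was -0.423 points with the 39-CpG region included and ran from -0.129 to 0.354 with replicates left out. Leaving out replicates gave -4.95 to 0.00976 reads per 1000000 for the 39-CpG region, -24.3 to 22.13 for the whole interval and -1.09 to 0.208 points for gene ends. Gene ends with levels from 20% to 80% could not be run because no end kept 5 cytosines.

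Small differences at 6 named regions changed sign. Without saline 1 and cocaine 3 the differences were 2.90 points before Gm13034, 0.384 for the long region in the Zfp978 span, 0.334 for the 15 CpGs between genes, -1.47 for the long region in the Zfp982 span and -0.455 at Gm13136. Differences of some other regions kept their sign but shrank without that pair of libraries. Lower ones went to -5.21 before Gm13140, -5.13 and -6.82 in the 3-CpG regions of the Zfp993 span and between genes, -2.81 in the Zfp981 span and -2.06 in Gm13241. Higher ones went to 2.81 in the 5-CpG region of the Zfp993 span and to 0.157 in Tnfrsf8. Not every difference shrank, and that of Gm13034 went to -4.25. With gaps of at most 200 bp the 3-CpG region between genes was joined to the regions on either side of it, and the joined run was at -2.68. With equal weight per cytosine differences were 0.152, -0.887 and -0.516 in the Zfp978 span, the Zfp982 span and Gm13136. With each replicate left out, they ran from -3.55 to 1.94 before Gm13034, -1.12 to 0.283 and -0.912 to 1.47 in the Zfp978 and Zfp982 spans, -0.608 to 0.351 between genes, -0.592 to 1.51 at Gm13136 and -1.59 to 0.0758 at Gm13238. The cause was not tested. The design of 4 against 4 mice limits exact tests to p of 0.0286 or more, reads of 1 fragment are not independent, and most zinc finger promoters of the cluster were not measured.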

Other observations

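The interval listed 2486 cytosines with at least 10 reads in any library, of which 1135 (45.7%) were read in all 8 and 858 in only 1. The mean level was 66.9% for those listed by 1 library and 45.8% for those common to all 8, so the members are the less methylated part of what the assay read there. Cytosines listed by 2 to 6 libraries had mean levels from 67.6% to 78.9%.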
